A study of Mus musculus with 2 samples.

Results

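The genes described here build, desaturate, store, carry or burn long-chain fatty acids. They are 35 genes chosen by symbol from the gene count table, which lists 24532 genes, and each symbol matched 1 row. They were measured by RNA sequencing in mouse (C57BL/6) cardiac myofibroblasts, the contractile and matrix-secreting cells into which heart fibroblasts turn after injury, isolated 3 days after myocardial infarction. One culture received an siRNA against Bcat1 (siBcat1) and the other a control siRNA (siControl), both at 12.5 nM with RNAiMAX and both kept for 72 hours in DMEM with serum. Bcat1 encodes the cytosolic aminotransferase of leucine, isoleucine and valine.

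Each group had 1 library, so no difference below has a replicate check and no p-value is given. The labels name 1 siRNA product per group, and lowering of Bcat1 cannot be told apart from any other action of that siRNA; whether cells of several hearts were combined is not stated in the labels. The siBcat1 library held 104581819 counts and the siControl library 127309329. Bcat1 itself had 99 counts with siBcat1 and 8891 with siControl. Fibroblast and myofibroblast markers (Pdgfra, Col1a1, Acta2, Postn and others, 12 of 12) passed 5 CPM. In TMM-scaled counts 5 of 6 were lower with siBcat1 in each list, with Thy1 and Tagln higher. Of the lower ones Tcf21, Acta2 and Cnn1 turned positive with upper-quartile factors and Pdgfra after the length adjustment given further on. The fibroblast list summed to 2727 TPM with siBcat1 and 8483 TPM with siControl. Most of this sum was Col1a1 (1071 and 3869 TPM in that order) and Col1a2 (1097 and 3788 TPM). In TMM-scaled counts their log2 folds of siBcat1 over siControl were -1.35 and -1.28. Pdgfra, Dcn and Tcf21 had -0.43, -0.15 and -0.09, and Thy1 0.63. The myofibroblast list summed to 4627 TPM with siBcat1 and 7072 TPM with siControl. The part of these differences in the results below was not tested. By contrast, the adipocyte markers Plin1, Cidec, Lep, Retn and Cfd and the cardiomyocyte markers Myh6, Ryr2 and Mb were at 0 in both libraries. Of the other cardiomyocyte markers Actc1 and Tnni3 had at most 13 counts, and Tnnt2 had 12.6 TPM with siBcat1 and 80.6 TPM with siControl (TPM, a level scaled by transcript length and library).

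Fatty acid synthesis begins with citrate, which is cleaved in the cytosol to acetyl-CoA, carboxylated to malonyl-CoA and extended to palmitate by fatty acid synthase; elongases and desaturases then lengthen and unsaturate the chain. Oxidation runs the other way in mitochondria, where the carnitine shuttle imports the acyl-CoA and the dehydrogenases and the trifunctional protein shorten it in cycles. SREBP-1 is the transcription factor best known for switching on the synthesis genes, and the PPARs for switching on uptake, storage and oxidation genes. Malonyl-CoA inhibits carnitine palmitoyltransferase 1, so that synthesis and oxidation oppose each other.

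With siBcat1, all 3 genes of palmitate synthesis had lower scaled counts, of which Acaca and Fasn turned slightly positive once a trend with transcript length was subtracted. Of the 8 desaturase and elongase genes 7 were lower, Elovl1 turning positive with upper-quartile factors. Of all genes averaging 5 CPM or more, 5287 of 9935 were lower in scaled counts. Of the 7 genes of mitochondrial oxidation 5 had a positive log2 fold in scaled counts (71.4%, against 46.8% of all genes), of which Cpt2 was within counting error, Acadl, Hadhb and Cpt2 were lower in TPM, and none reached 2-fold. On the log2(TPM + 1) scale the median difference of all genes was itself -0.52. The fatty acid binding protein genes split, with Fabp4 higher and Fabp5 lower. Counts were scaled to a common library size (CPM) with trimmed mean of M values (TMM) factors, and the 31 of 35 genes whose 2 libraries averaged 5 CPM or more are called measured. Of these 31, 1 gene was at least 2-fold higher with siBcat1 (Fabp4, 3.23%), against 5.58% of all 9935 genes measured. The 4 genes at least 2-fold lower (Scd2, Fasn, Lpl and Fads2) were 12.9% of the members, against 13.0% of all genes. At 1.5-fold, 3 genes (9.68%) were higher, against 17.6% of all genes, and 11 genes (35.5%) were lower, against 25.6%. The share of genes past 2-fold was thus near the background in the lower direction and under it in the higher direction. The median log2 fold of siBcat1 over siControl was -0.32 over the members and -0.06 over all genes.

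**Figure D1:**
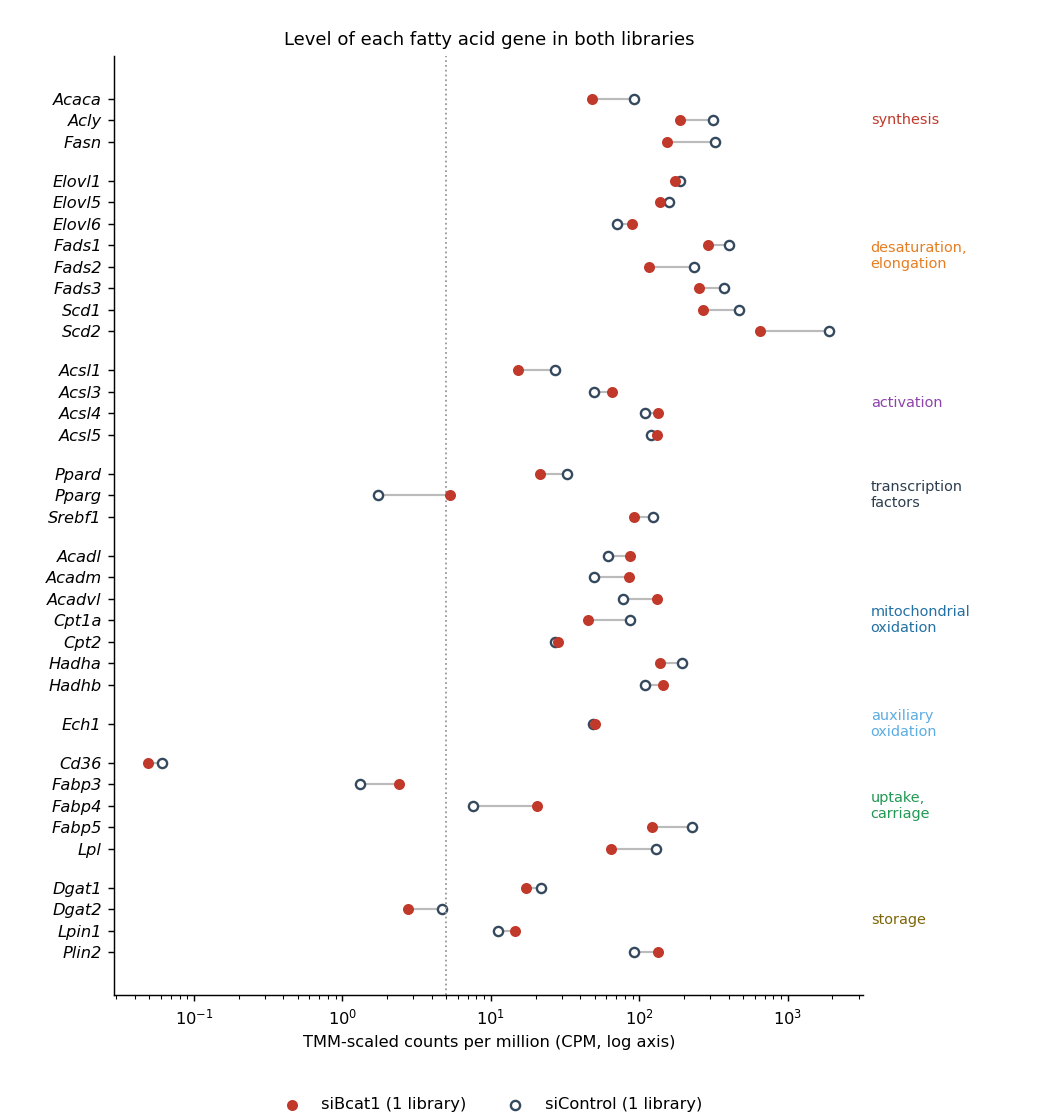
Level of each of the 35 genes in TMM-scaled CPM (log axis), by role, with 1 filled point for the siBcat1 library and 1 open point for the siControl library; the dotted line marks 5 CPM. The filled point lies left of the open one for every synthesis gene and right of it, on this scale, for the 3 acyl-CoA dehydrogenase genes Acadm, Acadl and Acadvl (in TPM not for Acadl), and Cd36 lies far below the other genes.

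Transcript length ordered the folds of all genes in these libraries, and folds are therefore also given after the lowess curve of log2 fold on transcript length was subtracted (length-adjusted). Over 9887 genes with a length, Spearman's rho between fold and length was -0.651; over the 31 measured members it was -0.516; both describe genes of the same 2 libraries, and genes are not independent replicates. Among genes with transcripts of over 5000 bases the median log2 fold was -1.01 over 4 members and -0.84 over 1798 genes. Between 3000 and 5000 bases it was -0.58 over 14 members and -0.32 over 3082 genes, and between 1500 and 3000 bases 0.40 over 9 members and 0.14 over 3470 genes. The 4 members of up to 1500 bases (Fabp4, Fabp5, Ech1 and Elovl1) had a median of -0.03, where 1537 genes of that length had 0.67. After adjustment 1 member was at least 2-fold higher (Elovl6), against 4.17% of all genes, and 1 at least 2-fold lower (Fabp5), against 5.30%. No member past 2-fold before this adjustment was past it afterwards; with the length implied by counts and TPM instead, Fads2 was, with -1.40.

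**Figure D2:**
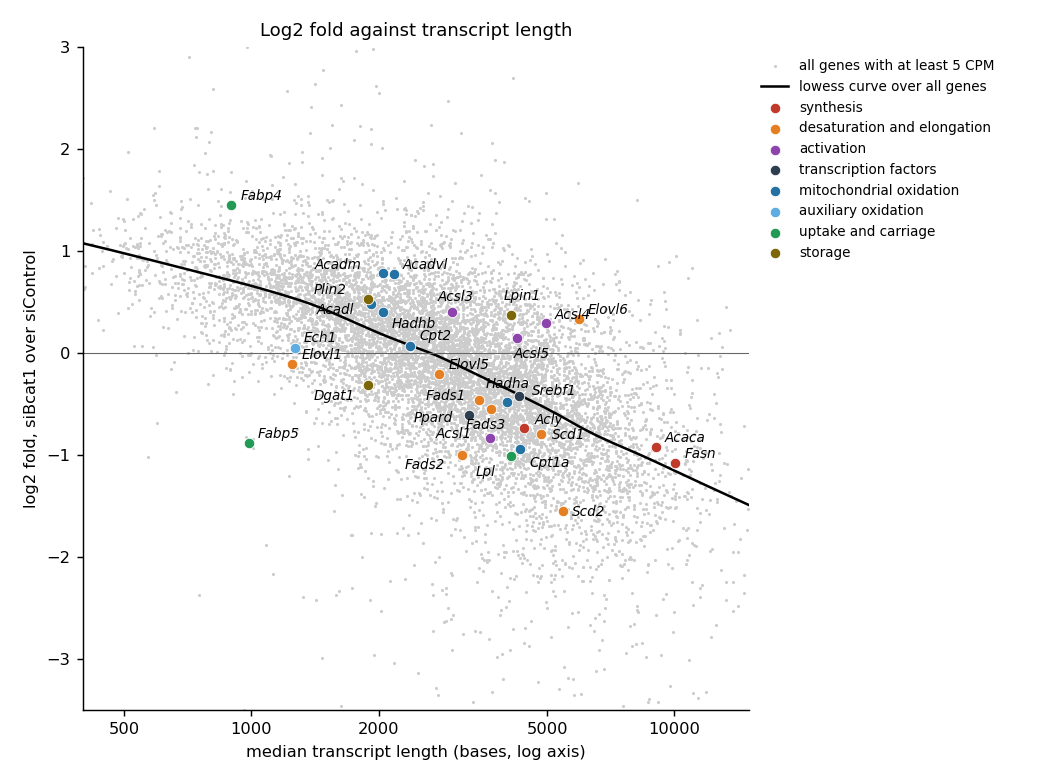
Log2 fold (siBcat1 over siControl) against median transcript length in bases (log axis) for 9887 genes in grey, of which 71 lie outside the plotted range, with the lowess curve in black and the 31 measured members coloured by role. Fasn and Acaca lie on the curve at the long end, Fabp5 lies far below it at the short end, and Elovl6 lies above it.

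In scaled counts, palmitate synthesis was lower at each of its steps, though not after length adjustment. Acly, which makes cytosolic acetyl-CoA from citrate, had 188 CPM with siBcat1 and 313 CPM with siControl, a log2 fold of -0.73 [-0.76 to -0.71]; brackets hold exact 95% intervals of counting error only, with no spread between cultures. Acaca, the carboxylase that makes malonyl-CoA, had 48.1 CPM with siBcat1 and 91.5 CPM with siControl (-0.93 [-0.98 to -0.88]). Fasn, the synthase itself, had 154 CPM with siBcat1 and 326 CPM with siControl (-1.08 [-1.11 to -1.06]), which is 2.12-fold lower. These are among the longest transcripts of the set: 9026 bases for Acaca and 10050 for Fasn. Length-adjusted, Acaca had 0.14 and Fasn 0.07, both near the curve and of the opposite sign, and Acly, with 4410 bases, kept a negative value of -0.30. The Acaca locus overlaps the model of Tada2a, and the sum of both genes had a log2 fold of -0.80.

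The promoter of Fasn is shown because this gene had the most negative unadjusted log2 fold of the synthesis group and is a textbook target of SREBP-1 and of the CCAAT-binding factor NF-Y. It lies at chr11:120824498-120824797 (GRCm38.p6, minus strand), runs from 250 bases before to 50 bases after a RefSeq transcript start and is written in the sense of the gene. Capitals mark the CCAAT box (CCAAT or its complement ATTGG), found 3 times between bases -90 and -55.

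Fasn: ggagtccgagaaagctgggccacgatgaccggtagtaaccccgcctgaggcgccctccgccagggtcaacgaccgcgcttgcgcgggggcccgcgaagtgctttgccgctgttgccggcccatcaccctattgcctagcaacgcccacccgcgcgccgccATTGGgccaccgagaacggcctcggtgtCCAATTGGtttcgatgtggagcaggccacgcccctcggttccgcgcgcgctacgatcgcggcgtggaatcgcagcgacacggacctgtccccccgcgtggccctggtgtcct

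Promoter windows were matched in RefSeq for 27 of the 35 genes, with 33 windows, and were searched on both strands for 5 motifs. The CCAAT box was in 48.5% of the members' windows and in 37.4% of 32851 windows of all genes. The GC box (GGGCGG) was in 63.6% of the members' windows and 35.7% of all. The sterol response element searched as TCACNCCAC was in 1 window, that of Acsl1 (3.03% against 1.24%), and the E-box CACGTG was in those of Elovl5 and Plin2 (6.06% against 7.15%). The PPAR element DR1, searched as AGGTCA repeated after 1 base with up to 2 mismatches, was in the windows of Cd36, Elovl1 and Plin2 (9.09% against 3.86%). These matches describe letters and not binding. Measured genes with a CCAAT box and lower scaled counts with siBcat1 were Fasn, Acly, Acsl1, Cpt1a, Elovl1, Elovl5, Fads3, Ppard and Srebf1. Those with higher scaled counts were Plin2, Acsl3 and Acsl5. Fasn turned positive length-adjusted, Elovl1 with upper-quartile factors, and Acsl3 and Acsl5 were lower in TPM. Of all 31 measured members 18 were lower and 13 higher in scaled counts, but only 24 of the 31 had a window to search. Measured members without a window were Fabp4, which was higher, and Dgat1, Fabp5, Fads1, Lpl, Scd1 and Scd2, which were lower. The split over all 31 is thus no matched background for the genes with a CCAAT box.

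Desaturases were lower in every case, and Scd2 most of all. The stearoyl-CoA desaturases put the first double bond into saturated chains. Scd2 (chromosome 19, 44293676 to 44306864 in GRCm38.p6) had 649 CPM with siBcat1 and 1899.6 CPM with siControl, a log2 fold of -1.55 [-1.56 to -1.54] or 2.93-fold lower. Scd1, which lies 87.6 kb from it, had 269 CPM with siBcat1 and 466 CPM with siControl (-0.79 [-0.81 to -0.77]). Both were lower, and length-adjusted they had -0.92 for Scd2 and -0.28 for Scd1. Per length, in the deposited TPM values, Scd2 stood at 2.14 times the level of Scd1 with siBcat1 and 3.61 times with siControl. These genes are close paralogs whose reads the counting could have split, and their summed counts had a log2 fold of -1.37 [-1.38 to -1.36].

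The front-end desaturase genes Fads1, Fads2 and Fads3 lie side by side on chromosome 19 (10040855 to 10196874), and Fads1 and Fads2 act in the making of polyunsaturated fatty acids. Fads2 had 116 CPM with siBcat1 and 233 CPM with siControl, a difference that stands at the 2-fold limit with a log2 interval of -1.03 to -0.97. Fads3 had 252 CPM with siBcat1 and 369 CPM with siControl (-0.55 [-0.57 to -0.53]). Fads1 had 291 CPM with siBcat1 and 402 CPM with siControl (-0.47 [-0.49 to -0.45]). All 3 neighbours were lower, and length-adjusted Fads2 had -0.86, Fads3 -0.27 and Fads1 -0.24. In TPM, Fads2 made up 32.4% of the summed level of this cluster with siBcat1 and 40.3% with siControl.

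The elongases, which add carbon pairs to existing chains, did not move together. Elovl6, which elongates palmitate and is a known SREBP-1 target, was the exception of the synthesis genes, with 89.2 CPM with siBcat1 and 70.9 CPM with siControl, a log2 fold of 0.33 [0.29 to 0.37]. With a transcript of 5951 bases its length-adjusted value was 1.05, the highest among measured members; in TPM it had 21.9 with siBcat1 and 24.7 with siControl, so its sign depended on the scale. Elovl5, which extends polyunsaturated chains, had 137 CPM with siBcat1 and 159 CPM with siControl (-0.21 [-0.24 to -0.18], length-adjusted -0.17). Elovl1, which makes very long saturated chains, had 175 CPM with siBcat1 and 189 CPM with siControl (-0.11 [-0.14 to -0.08]), which turned to 0.02 with upper-quartile factors and was -0.65 length-adjusted. The Elovl1 locus overlaps that of the mitotic gene Cdc20, and no source says whether the counting used strand; both genes summed had -0.04.

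Acyl-CoA synthetases, which activate fatty acids for either fate, were divided. Acsl1, the form known for feeding oxidation and storage in heart and fat, was lower, with 15.2 CPM with siBcat1 and 27.02 CPM with siControl (-0.83 [-0.92 to -0.75], length-adjusted -0.56). Acsl3, a lipid droplet enzyme, had 65.5 CPM with siBcat1 and 49.5 CPM with siControl (0.40 [0.35 to 0.45]). Acsl4, which prefers arachidonate, had 133 CPM with siBcat1 and 108 CPM with siControl (0.29 [0.26 to 0.33]). Acsl5, the most abundant of them per length at 46.9% of their summed TPM with siBcat1 and 48.0% with siControl, had 132 CPM with siBcat1 and 119.9 CPM with siControl (0.14 [0.11 to 0.17]). These 3 genes were higher in scaled counts and more so length-adjusted (0.50, 0.83 and 0.54, for Acsl3, Acsl4 and Acsl5). They were lower on the log2(TPM + 1) scale (-0.10, -0.19 and -0.36), where the median of all genes was -0.52. The Acsl3 locus overlaps that of Utp14b, and the sum of both had 0.32.

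The transcription factors went in different directions. Srebf1, which encodes SREBP-1, had 91.7 CPM with siBcat1 and 123 CPM with siControl, a log2 fold of -0.43 [-0.46 to -0.39], and lay on the length curve with -0.01 after adjustment; summed with the overlapping model of Rai1 it had -0.51. Ppard, the PPAR found in most tissues, had 21.3 CPM with siBcat1 and 32.5 CPM with siControl (-0.61 [-0.68 to -0.53], length-adjusted -0.43). Pparg, the PPAR of fat cells and macrophages, was low throughout, with 535 counts (5.28 CPM) with siBcat1 and 227 counts (1.73 CPM) with siControl. Its log2 fold was 1.61 [1.39 to 1.84] and 1.41 length-adjusted, but its mean was below 5 CPM and it enters no count above. Per length, Pparg took 8.95% of the summed TPM of the 3 factors with siBcat1 and 2.06% with siControl.

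**Figure D3:**
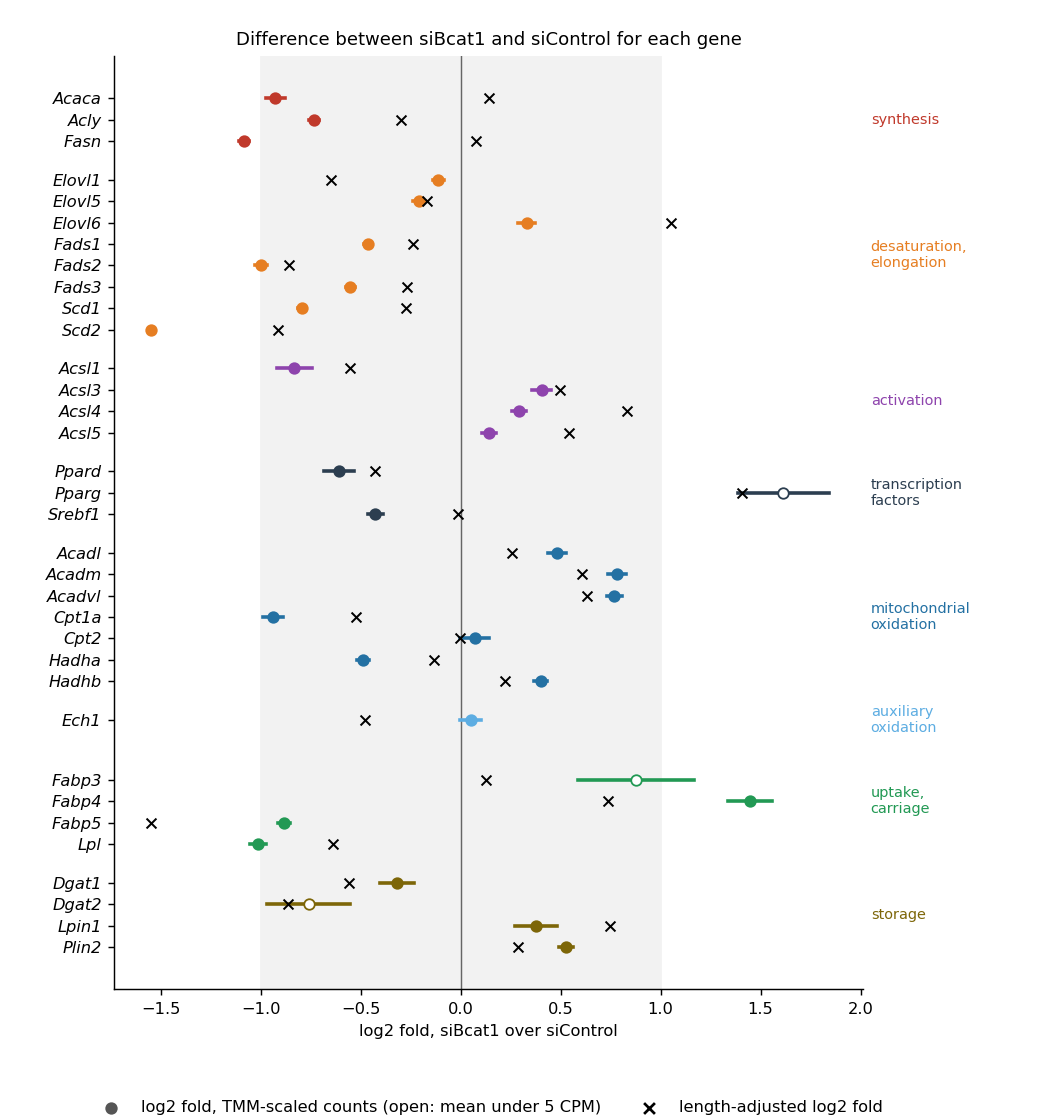
Log2 fold of siBcat1 over siControl for 34 of the genes by role, with exact 95% counting intervals as bars (open points have a mean under 5 CPM), and the length-adjusted value as a cross; the grey band spans differences under 2-fold, and Cd36, with 5 and 8 counts, is left out. Only Fabp4, Scd2, Fasn, Lpl, Fads2 and the low gene Pparg reach or pass the band's edge before adjustment, and the crosses of Fasn and Acaca lie on the other side of 0.

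Genes of mitochondrial oxidation went in both directions, with Cpt1a and Hadha lower. Cpt1a, the malonyl-CoA-sensitive transferase that admits fatty acids to mitochondria, had 44.8 CPM with siBcat1 and 85.9 CPM with siControl, a log2 fold of -0.94 [-0.99 to -0.89] and -0.52 length-adjusted. Cpt2, its partner on the inner membrane, had 28.3 CPM with siBcat1 and 26.96 CPM with siControl (0.07 [-0.00 to 0.14]), so its difference was within counting error. The acyl-CoA dehydrogenases take the first step of each cycle for chains of different length, and all 3 were higher. Acadm (medium chains) had 85.4 CPM with siBcat1 and 49.7 CPM with siControl (0.78 [0.74 to 0.83]). Acadvl (very long chains) had 131.6 CPM with siBcat1 and 77.2 CPM with siControl (0.77 [0.73 to 0.81]). Acadl (long chains) had 86.0 CPM with siBcat1 and 61.6 CPM with siControl (0.48 [0.44 to 0.53]). Length-adjusted they had 0.61, 0.63 and 0.25, in the order named. In TPM, Acadm had 60.5 with siBcat1 and 49.95 with siControl and Acadvl 87.9 and 73.2 in that order, while Acadl had 64.5 with siBcat1 and 65.6 with siControl, so that its direction in TPM was not that in scaled counts. The 7 genes of the group had a median log2 fold of 0.40, or 0.22 length-adjusted, and the 3 synthesis genes -0.93, or 0.07 length-adjusted. Most of the distance between the groups was thus absent after adjustment for length, their median lengths being 2168 and 9026 bases.

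Hadha and Hadhb encode the alpha and beta subunits of the trifunctional protein, which finishes the cycle on long chains. Hadha had 137 CPM with siBcat1 and 192 CPM with siControl (-0.49 [-0.52 to -0.46]). Hadhb had 144 CPM with siBcat1 and 109 CPM with siControl (0.40 [0.37 to 0.43]). The subunits thus had opposite signs in scaled counts, and in TPM the ratio of Hadha to Hadhb was 0.506 with siBcat1 and 0.936 with siControl. Their transcripts have 4017 and 2045 bases, and length-adjusted values of -0.13 and 0.22. The genes lie head to head on chromosome 5 with 272 bases between their starts (Hadha 30119423 to 30154980, minus strand; Hadhb 30155253 to 30184593, plus strand). The stretch shown holds nearly all of the sequence between both starts, which the genes share as upstream sequence; it spans chr5:30155003-30155302 (GRCm38.p6, plus strand, the sense of Hadhb), with the GC box GGGCGG or its complement in capitals, 4 times. Of these, 2 lie before the Hadhb start and 2 after it, within the Hadhb transcript (bases 11 to 16 and 25 to 30).

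Hadhb: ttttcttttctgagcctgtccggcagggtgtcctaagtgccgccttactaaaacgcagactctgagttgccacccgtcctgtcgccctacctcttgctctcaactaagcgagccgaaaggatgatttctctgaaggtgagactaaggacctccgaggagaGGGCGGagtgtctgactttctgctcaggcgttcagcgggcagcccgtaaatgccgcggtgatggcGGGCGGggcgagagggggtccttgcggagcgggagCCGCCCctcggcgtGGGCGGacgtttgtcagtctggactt

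Ech1, a dienoyl-CoA isomerase that helps oxidise unsaturated chains, had 50.2 CPM with siBcat1 and 48.5 CPM with siControl (0.05 [-0.00 to 0.10]), within counting error. At 1267 bases it lay under the curve for short transcripts, with -0.48 length-adjusted.

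Uptake and carriage genes split in direction. Fabp5, a fatty acid binding protein of epidermis, macrophages and other cells, was the most abundant member per length with siBcat1 and second with siControl, at 188 TPM with siBcat1 and 493 TPM with siControl. In counts it had 122 CPM with siBcat1 and 226 CPM with siControl, a log2 fold of -0.89 [-0.92 to -0.86]. Short transcripts were mostly higher in these libraries, and at 987 bases Fabp5 had a length-adjusted value of -1.55, the lowest of all members. Fabp4, the binding protein of fat cells, macrophages and capillary endothelium, lies 188 kb from Fabp5 on chromosome 3 (10204342 to 10208616) and was higher, with 2077 counts (20.5 CPM) with siBcat1 and 990 counts (7.53 CPM) with siControl. Its log2 fold was 1.44 [1.33 to 1.56], 2.72-fold higher, and 0.74 length-adjusted. Fabp4 took 19.5% of the summed TPM of Fabp3, Fabp4 and Fabp5 with siBcat1 and 4.67% with siControl. Fabp3, the heart and muscle form, had 243 counts with siBcat1 and 172 with siControl (0.87 [0.59 to 1.16], length-adjusted 0.13), under 5 CPM; its locus overlaps that of Zcchc17, which had 3789 and 3987 counts in the same order, and the sum of both had a log2 fold of 0.33.

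Lpl, the lipase that frees fatty acids from lipoproteins, had 64.5 CPM with siBcat1 and 130.3 CPM with siControl, a log2 fold of -1.01 [-1.06 to -0.97] and -0.64 length-adjusted. Cd36, the fatty acid translocase, was near absent, with 5 counts with siBcat1 and 8 with siControl, a ratio with a counting interval from -2.26 to 1.49 in log2. Fabp4, Cd36 and Lpl are also used by other cells of the heart, so the markers of those cells are given here. Of 8 macrophage markers, Ptprc, Adgre1, Fcgr1 and C1qa were at 0 in both libraries and 1 passed 5 CPM; the list summed to 32.3 TPM with siBcat1 and 13.0 TPM with siControl, with Lyz2 at 29.5 and 10.7 TPM in that order. The 6 endothelial markers summed to 16.3 TPM with siBcat1 and 15.6 TPM with siControl, and none was at 0. The 6 smooth muscle and pericyte markers summed to 6.52 TPM with siBcat1 and 23.9 TPM with siControl, and none was at 0. Most of this sum was Notch3, with 4.88 TPM with siBcat1 and 20.9 TPM with siControl. In scaled counts 3 of these markers were lower (Notch3, Cspg4 and Myh11) and 3 higher (Kcnj8, Abcc9 and Rgs5). Only Notch3 passed 5 CPM, with a log2 fold of -1.60, or -0.62 length-adjusted. Adipocyte markers had 0 counts apart from 16 of Adipoq with siBcat1. The part of macrophage RNA in the Fabp4 and Pparg differences, and of smooth muscle or pericyte RNA in that of Lpl, was not tested, and in bulk RNA fewer cells of a type and less RNA per cell cannot be told apart.

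Storage genes went in both directions. Plin2, which coats lipid droplets, had 132.6 CPM with siBcat1 and 91.99 CPM with siControl, a log2 fold of 0.53 [0.49 to 0.56] and 0.29 length-adjusted; in TPM it had 103 with siBcat1 and 101 with siControl. Lpin1, a phosphatidate phosphatase on the way to triglyceride, had 14.6 CPM with siBcat1 and 11.2 CPM with siControl (0.37 [0.27 to 0.48], length-adjusted 0.75). In TPM, Lpin1 was lower, with 3.81 with siBcat1 and 4.19 with siControl. Dgat1, one of the enzymes that close triglyceride synthesis, had 17.3 CPM with siBcat1 and 21.6 CPM with siControl (-0.32 [-0.41 to -0.23], length-adjusted -0.56). Dgat2, the other, had 279 counts with siBcat1 and 613 with siControl (-0.76 [-0.97 to -0.55], length-adjusted -0.87) and lay under 5 CPM; its levels were 1.78 TPM with siBcat1 and 4.30 TPM with siControl. The droplet coat and the phosphatase were higher in scaled counts and both acyltransferases lower, and no storage gene reached 2-fold in scaled counts.

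The Plin2 promoter is shown as that of the most abundant storage gene; Plin2 is a known PPAR target, and its window was the only one among the members with both a DR1 and an E-box match. It spans chr4:86670010-86670309 (GRCm38.p6, minus strand, in the sense of the gene). Capitals mark, from left to right, the DR1 match on the complementary strand at bases -225 to -213, a CCAAT box, the E-box CACGTG across the start, and a GC box.

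Plin2: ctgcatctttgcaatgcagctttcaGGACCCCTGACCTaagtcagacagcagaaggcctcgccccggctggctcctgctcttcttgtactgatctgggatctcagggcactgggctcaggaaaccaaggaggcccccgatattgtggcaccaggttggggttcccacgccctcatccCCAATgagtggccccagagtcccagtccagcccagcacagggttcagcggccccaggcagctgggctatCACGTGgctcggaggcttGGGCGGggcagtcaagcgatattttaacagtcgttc

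Summed in TPM, the 35 genes reached 1958 with siBcat1 and 3841 with siControl, or 0.196% and 0.385% of all TPM in that order. Scd2 and Fabp5 alone gave 362 TPM with siBcat1 and 1216 TPM with siControl, and the other 33 genes 1596 TPM with siBcat1 and 2625 TPM with siControl. On the log2(TPM + 1) scale 12 of 31 members (38.7%) were at least 2-fold lower, against 24.1% of all genes, and 0 were at least 2-fold higher, against 0.976%. The median of all genes was itself -0.52 on this scale. Set against the median of all genes, the members' median was 0.26 lower both in scaled counts and in TPM, and 0.14 lower length-adjusted.

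Other lipid genes, from 6 lists chosen by function, lay on both sides of 0. Of 146 genes 145 were in the table and 102 were measured; past 2-fold were 8 higher genes (7.84%, against 5.58% of all genes) and 7 lower genes (6.86%, against 13.0%). Their median log2 fold was 0.06, or -0.05 length-adjusted. After adjustment 6 genes were past 2-fold higher, against 4.17% of all genes, and 4 past 2-fold lower, against 5.30%. None of 12 further synthesis and elongation genes passed 2-fold (median 0.19), the largest difference being Hacd1, a dehydratase of the elongation cycle, with 0.87 [0.82 to 0.92]. Among 19 further genes of mitochondrial oxidation, with a median of 0.21, 1 was at least 2-fold higher (5.26%, against 5.58% of all genes). This was Acot13, an acyl-CoA thioesterase, with 1.23 [1.17 to 1.29]. Etfb, a subunit of the flavoprotein that takes electrons from the acyl-CoA dehydrogenases, had 0.89 [0.86 to 0.93]. Length-adjusted, these 3 short transcripts had 0.18 for Hacd1, 0.42 for Acot13 and 0.18 for Etfb.

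The 15 peroxisomal genes had a median of -0.01, with 8 lower and 7 higher. Past 2-fold were 2 higher (13.3%, against 5.58% of all genes) and 0 lower (0.00%, against 13.0%). These 2 were the thiolase gene Acaa1b with 1.39 [1.22 to 1.55] and Pex7, an import receptor, with 1.02 [0.94 to 1.11]. Their length-adjusted values were 1.06 and 1.49. Among 18 storage and lipolysis genes, Gpam, the acyltransferase that begins glycerolipid synthesis, had 7.39 CPM with siBcat1 and 28.9 CPM with siControl (-1.97 [-2.08 to -1.86], length-adjusted -1.66). Hilpda, a droplet-associated inhibitor of lipolysis, had 1.25 [1.14 to 1.37], and Bscl2, which encodes seipin of the droplet neck, 1.14 [1.093 to 1.195]. Gpam was lower and Hilpda and Bscl2 higher, while the list had a median of -0.004, with 9 genes lower and 9 higher. Past 2-fold were 2 higher genes (11.1%, against 5.58% of all genes) and 1 lower gene (5.56%, against 13.0%). Length-adjusted, Hilpda had 0.50 and Bscl2 0.93, both under 2-fold. The 12 uptake and carriage genes had a median of 0.11, with 5 lower and 7 higher. Past 2-fold were 2 higher (16.7%, against 5.58% of all genes) and 1 lower (8.33%, against 13.0%). Vldlr, a lipoprotein receptor, had -1.34 [-1.475 to -1.199] and Dbi, the acyl-CoA binding protein, 1.04 [1.02 to 1.06], with length-adjusted values of -0.62 and 0.09. Angptl4, a secreted inhibitor of Lpl, had 12.7 CPM with siBcat1 and 6.18 CPM with siControl (1.04 [0.91 to 1.17], length-adjusted 1.23).

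Regulators had a median of -0.17 over 26 genes, with 5 at least 2-fold lower (19.2%, against 13.0% of all genes) and 1 higher (3.85%, against 5.58%). Length-adjusted, their median was -0.35. After this adjustment 2 of them were past 2-fold lower (Sirt1 and Mlxip), against 5.30% of all genes, and 1 higher, against 4.17%. Sirt1, a deacetylase, had 2.69 CPM with siBcat1 and 14.1 CPM with siControl (-2.40 [-2.58 to -2.21]), Ncor1, a corepressor of nuclear receptors, had -1.83 [-1.90 to -1.75], and Mlxip, a glucose-responsive transcription factor, -1.61 [-1.68 to -1.53]. Their length-adjusted values were -2.08 for Sirt1, -0.93 for Ncor1 and -1.06 for Mlxip. Pdk4, the pyruvate dehydrogenase kinase that favours fatty acid use and is a PPAR target, had 19.1 CPM with siBcat1 and 5.71 CPM with siControl (1.74 [1.62 to 1.87], length-adjusted 1.97).

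**Figure D4:**
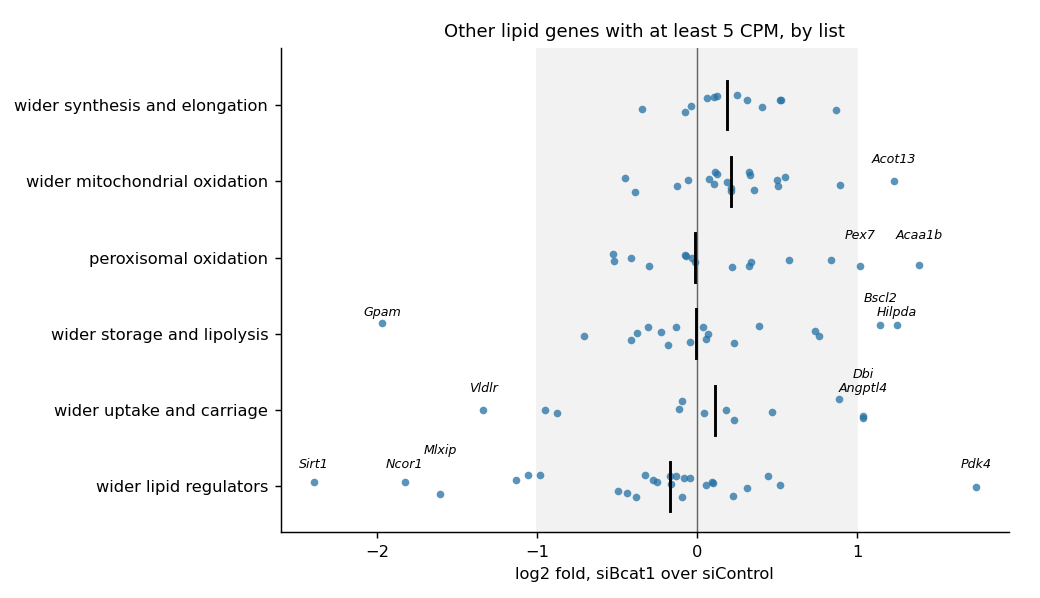
Log2 fold of siBcat1 over siControl for 102 other lipid genes in 6 lists, 1 point per gene with vertical scatter added for display, the list median as a black bar and differences under 2-fold in grey. The medians lie between -0.17 and 0.21, and the regulators extend furthest to the lower side, to Sirt1 with -2.40.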

How the data were processed

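Per the labels' protocols, total RNA went through a stranded mRNA library preparation and was sequenced on an Illumina instrument. The submitters' processing notes name FastQC, Trimmomatic, HISAT2, StringTie and the build mm10, without versions or roles; strand use in counting is not given in those sources. The deposited counts are whole numbers of reads per gene and not normalized. The deposited TPM values (unit per the file headers) sum to 998120 (siBcat1) and 998462 (siControl).

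Counts were scaled with edgeR 4.0.16 (R 4.3.3) TMM factors of 0.969 for siBcat1 and 1.03 for siControl; 1 CPM equals 101 and 131 counts in that order. Folds have exact (Clopper-Pearson) 95% intervals, which cover counting error only, and a count of 0 was set to a floor of 3 counts. Lengths are medians of GENCODE M21 transcripts matched by RefSeq accession, found for all 35 members and 9887 of 9935 genes; the lowess curve (statsmodels 0.14.6, fraction 0.3, 3 iterations) took 37.2% of the variance of the log2 folds. Promoters and coordinates are from RefSeq (GRCm38.p6); Dgat1, Dgat2, Fabp4, Fabp5, Fads1, Lpl, Scd1 and Scd2 had no matched window. The calculations were tested on simulated data.

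All members are named, with up to 4 genes per other list by absolute fold. The members and lists were chosen with earlier results of these data known. Alternatives tried were scaling by library totals, by upper quartiles or by DESeq2 1.42.0 size factors, log2(TPM + 1) and log2(TPM + 0.1), minimum CPM of 1, 20 or none, folds of 1.5 and 3, whole intervals past 2-fold, and the length adjustment. A second length adjustment, on the length implied by counts and TPM, was chosen after seeing the data.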

Additional observations from a re-analysis of the deposited data

How the results depend on the processing

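No paired analysis was possible because each group has 1 library. The sign of the log2 fold was the same under all 7 other scalings, TPM scales and length adjustments for 19 of 31 measured members (4 higher, 15 lower). The share of all genes under the same rule was not counted. The TPM scales moved the median of all genes by -0.46 and -0.50. The rule thus keeps lower genes more readily than higher ones, and the split is no result about the members. On the TPM scales the median of all genes was -0.52 with log2(TPM + 1) and -0.56 with log2(TPM + 0.1). Both scales put 27 of 31 members below 0, and the share of all genes below 0 there was not counted. The 9 members that changed sign there had all been higher in scaled counts, the direction that a downward shift of all genes gives. DESeq2 size factors left 3 members at least 2-fold lower. Fasn reversed with the transcript length trend subtracted (0.0743) and with a trend on the length implied by the ratio of counts to TPM subtracted (0.0749). Acaca, Ech1 and Cpt2 also took the opposite sign with both, Acaca with 0.14 and Ech1 with -0.48 on transcript length, and Cpt2 close to 0. With library totals the members' median was -0.41, with upper-quartile factors -0.19, with log2(TPM + 1) -0.78, with log2(TPM + 0.1) -0.82, with a minimum of 20 CPM -0.45, and with the transcript length or implied length trend subtracted -0.13 or -0.16. The count of members at least 2-fold lower, 4 as reported, was 6 with library totals (Acaca and Cpt1a added), 1 with upper-quartile factors (Scd2), 12 with log2(TPM + 1) and with log2(TPM + 0.1), 1 with the transcript length trend subtracted (Fabp5) and 2 with the implied length trend subtracted (Fabp5 and Fads2), 11 at 1.5-fold, 0 at 3-fold and 2 with the whole counting interval past 2-fold. The count of members at least 2-fold higher, 1 as reported, was 0 with log2(TPM + 1), with log2(TPM + 0.1), at a minimum of 20 CPM and at 3-fold, 2 with the implied length trend subtracted, at a minimum of 1 CPM and with no minimum, and 3 at 1.5-fold. The cause was not tested, beyond the change of genes, scale or threshold that each alternative makes. Of all 9935 genes, upper-quartile factors moved the median by 0.13, to 816 genes at least 2-fold higher and 1024 lower. TMM gave 554 and 1292, DESeq2 factors 556 and 1288, library totals 391 and 1494. Of the TPM scales, log2(TPM + 1) gave 97 and 2396 and log2(TPM + 0.1) 107 and 2857. At 1.5-fold it was 1750 and 2544, at 3-fold 94 and 452, and with whole intervals past 2-fold 437 and 1110. With the length trend subtracted it was 412 and 524 of 9887 genes, with the implied length 384 and 533 of 9933. Minimum CPM of 20 gave 352 and 752 of 6644 genes, and of 1 gave 820 and 1596 of 11804. With no minimum it was 2084 and 3086 of 16044. Depth limits Cd36 most, whose interval covers both directions.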
